A study of Mus musculus with 12 samples.

Results

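The 9 genes described here belong to class I presentation and the interferon response, and their levels were read in the mouse striatum. They are B2m, H2-K1, H2-D1, H2-T23, Ifit3, Ifitm3, Bst2, Irf9 and Isg15. Each was taken by its gene name from the count table of the striatal RNA sequencing, and all 9 were found, each on 1 row, among 57132 features. The libraries came from C57Bl/6 mice aged 10 months that lack trace amine-associated receptor 5 (TAAR5-KO, 6 libraries) and from their wild-type littermates (TAAR5-WT, 6 libraries). Nothing beyond the knockout differs by label: no group was treated, and neither the allele nor its deleted part is given in the sources used here. The tissue was a coronal slice in front of Bregma with the cortex cut away, and the 6 mice of each genotype were of both sexes by the methods of the study, but no library is tied to a sex, an animal or a littermate. Levels are given as CPM, a gene's counts in proportion to the size of its library, after scaling by the trimmed mean of M-values (TMM), so that a level is relative to the bulk of the features in its library.

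Class I molecules sit on the surface of nucleated cells and show peptides from the cytosol to CD8 T cells and natural killer cells. H2-K1 and H2-D1 encode the classical heavy chains, H2-T23 encodes the heavy chain of the non-classical molecule Qa-1, and B2m encodes the light chain that all of them need to reach the surface. Interferons raise these genes together with a broad set of antiviral genes. Type I interferon acts through its receptor and JAK kinases, and the complex that then forms binds DNA with IRF9, the product of Irf9, at interferon-stimulated response elements. Ifit3 and Ifitm3 encode proteins that act against viral RNA and viral entry, Bst2 encodes tetherin, which holds budding virions at the membrane, and Isg15 encodes a ubiquitin-like modifier. In the brain, class I genes are used by endothelium and microglia and, at low levels, by neurons, where they have been tied to the pruning of synapses.

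The promoters of these genes show which of them carry the sequence that IRF9 complexes bind. The core of the interferon-stimulated response element, GAAANNGAAA, was searched on both strands of the 250 bases before each RefSeq start. RefSeq listed a promoter for all 9 genes, and the core was present for 5 of the 9. Over all RefSeq genes with a promoter, 936 of 27025 (3.46%) held it. Stretches around the cores are printed 5′ to 3′ on the strand of the gene, with each core in capitals, because they separate the genes of this set by a feature that was not used to choose them. They are RefSeq sequences of GRCm38.p6, and each window had 1 exact match in GRCm39, whose coordinates are given. The H2-T23 stretch is shorter, since the count table's annotation starts the gene farther upstream than RefSeq and takes this stretch into its first exon.
B2m (chr2:121978009-121978068, plus strand): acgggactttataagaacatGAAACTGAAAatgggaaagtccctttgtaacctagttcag
H2-T23 (chr17:36343698-36343727, minus strand): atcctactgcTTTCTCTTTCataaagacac
Ifit3 (chr19:34560753-34560836, plus strand): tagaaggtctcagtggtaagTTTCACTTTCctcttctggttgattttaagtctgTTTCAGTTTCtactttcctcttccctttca
Bst2 (chr8:71990207-71990266, minus strand): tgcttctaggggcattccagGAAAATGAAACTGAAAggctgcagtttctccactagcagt
Isg15 (chr4:156285312-156285373, minus strand): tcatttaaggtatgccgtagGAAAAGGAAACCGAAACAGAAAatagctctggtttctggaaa

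Isg15 held 3 overlapping cores in a single run, and Bst2 held 2 overlapping cores. In Ifit3, 2 separate cores were read on the opposite strand, where they appear as the reverse complement in the line above. B2m and H2-T23 had 1 core each, that of H2-T23 on the opposite strand. No match was found in the windows of H2-K1, H2-D1, Ifitm3 and Irf9, which says only that these letters are not in these windows. By the count table's annotation, the windows of H2-D1 and Irf9 lie inside the gene. For these genes the bases before the annotated start were not searched. The core of the gamma-activated site (TTCNNNGAA) was found for Bst2 alone among the 9 genes, where it overlaps the first response element core, and 8.13% of all RefSeq genes held it.

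**Figure D1:**
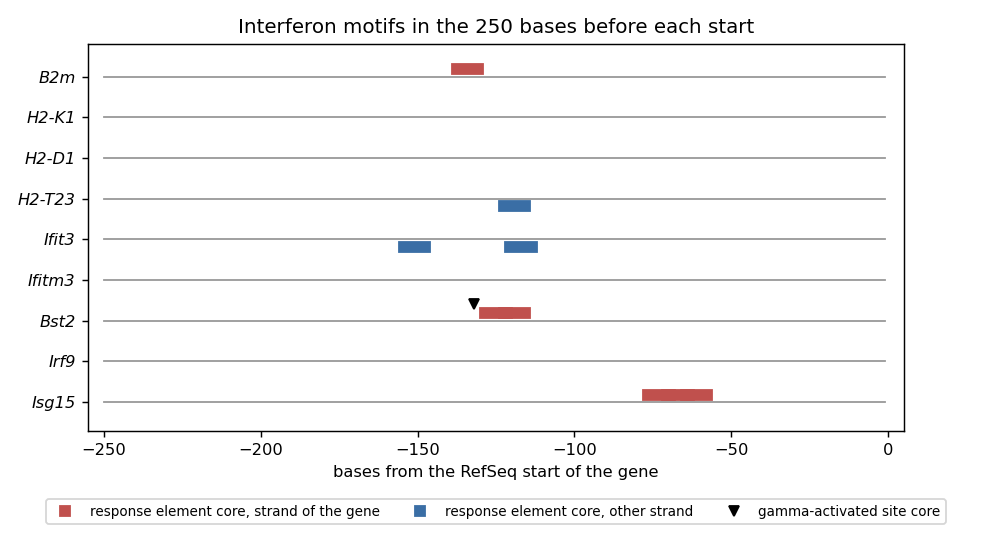
Positions of the response element core (boxes, above the line on the strand of the gene and below it on the other strand) and of the gamma-activated site core (triangle) in the 250 bases before the RefSeq start of each gene, with the distance from the start in bases on the x axis. Boxes are present for B2m, H2-T23, Ifit3, Bst2 and Isg15, 5 of the 9 genes.

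The labels were checked on the targeted gene first. Taar5 was higher in the libraries labelled TAAR5-KO, at 0.142 ± 0.0617 CPM (SD, n = 6), than in those labelled TAAR5-WT, at 0.0224 ± 0.0381 CPM (two-sided exact permutation test, p = 0.00649). These are 16 counts in all against 3, with 5 of 6 and 6 of 6 libraries at or under 3 counts, and reads outside a deleted part would check nothing. The counts run against a loss of Taar5 reads, but with the deleted part unknown they cannot decide whether the labels hold. Each direction below refers to the libraries as labelled. Ribosomal RNA held 64.3% to 88.1% of the counts, and between 1819907 and 6399188 counts per library remained outside it. One CPM corresponded to 8.30 reads in library NK10, the shallowest, and to 44.3 reads in NK12, the deepest. The floor of 3 counts lay between 0.0678 and 0.361 CPM and covers counting error only, whereas the 95% intervals of fold changes also take in the spread between libraries. All 10 marker genes of spiny projection neurons, the main neurons of the striatum, were tested, with a summed level of 221 to 477 CPM across libraries.

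Only B2m was abundant. It had 7292 of the 8535 counts of the 9 genes (85.4%). To compare genes, levels were set per kilobase of merged exons. This length takes in every annotated exon and ran from 678 bases for Ifitm3 to 5386 for Irf9. The order and ratios below depend on it: in plain CPM, Irf9 had a mean of 0.486, above Ifitm3 at 0.364. Per kilobase, B2m stood at 33.3 ± 4.98 CPM (SD, n = 12). The next gene, H2-D1, stood at 0.62 ± 0.23 CPM per kilobase, and their ranges did not meet. Ifitm3 followed at 0.537 ± 0.243, Ifit3 at 0.370 ± 0.131 and H2-K1 at 0.366 ± 0.0910 CPM per kilobase. Below them lay Bst2 at 0.176 ± 0.147, H2-T23 at 0.116 ± 0.0701, Isg15 at 0.110 ± 0.116 and Irf9 at 0.0902 ± 0.0403 CPM per kilobase. From H2-D1 downwards, the ranges of all neighbours in this order overlapped. The light chain exceeded the sum of H2-K1, H2-D1 and H2-T23 per kilobase by 29.7-fold in the median library, from 19.7-fold in NK12 to 65.9-fold in NK9. H2-D1 was above H2-K1 per kilobase in 11 of 12 libraries, with a median ratio of 1.53.

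B2m (ENSMUSG00000060802.9, chromosome 2 of GRCm39, 121978167 to 121983564, plus strand, protein coding) was the only one of the 9 with at least 232 counts in every library. In libraries labelled TAAR5-KO, it ran from 19.5 through a median of 29.7 to 32.8 CPM, on 250 to 1258 counts. In those labelled TAAR5-WT, it ran from 23.8 through 29.3 to 35.1 CPM, on 232 to 1054 counts. The groups overlapped, with 1 library labelled TAAR5-KO (NK2) below all wild-type libraries and 1 labelled TAAR5-WT (NK7) above all knockout libraries. The log2 fold change of TAAR5-KO over TAAR5-WT was −0.06 (SE 0.12, 95% interval −0.31 to 0.18, edgeR adjusted p = 0.899). Differences beyond 0.808-fold and 1.13-fold thus lay outside the interval. No 100-base window of its transcripts occurred in a transcript of another gene.

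The classical heavy chains were near 1 CPM. H2-K1 (ENSMUSG00000061232.17, chromosome 17, 34214991 to 34219321, minus strand) ran from 0.891 through 0.990 to 1.2 CPM in libraries labelled TAAR5-KO. In those labelled TAAR5-WT it ran from 0.723 through 1.11 to 1.62 CPM, so the wild-type range enclosed that of the knockout. Its spread was 0.119 CPM (SD, n = 6) against 0.367 CPM (SD, n = 6), a contrast that was not tested. The log2 fold change was −0.21 (SE 0.21, 95% interval −0.62 to 0.21, edgeR adjusted p = 0.763), and it was −0.10 without NK11 and −0.12 without NK7.

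H2-D1 (ENSMUSG00000073411.13, chromosome 17, 35481706 to 35486475, plus strand) showed the larger difference of the pair. It ran from 0.937 through 1.39 to 1.85 CPM in libraries labelled TAAR5-KO and from 0.766 through 1.86 to 2.65 CPM in those labelled TAAR5-WT. All 6 knockout libraries lay below the wild-type median, and 3 wild-type libraries (NK8, NK10 and NK12) lay above every knockout library, but wild-type library NK9, with 7 counts, was the lowest of all. The log2 fold change was −0.45 (SE 0.24, 95% interval −0.92 to 0.03), and it did not pass the threshold (unadjusted p = 0.0633, edgeR adjusted p = 0.457). With 1 library left out in turn, it ran from −0.56 without NK5 to −0.29 without NK12. The unadjusted p was 0.0275 without NK5, 0.0141 without NK9 and 0.0312 without NK11. It was above 0.05 without any other single library, with 0.141 without NK2, 0.142 without NK10 and 0.226 without NK12. With the GC trend removed the log2 fold change was −0.35 (unadjusted p = 0.138). With the ribosomal RNA share as covariate it was −0.35 (unadjusted p = 0.174).

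H2-T23 (ENSMUSG00000067212.9, chromosome 17, 36340665 to 36343747, minus strand) did not reach the filter of 0.5 CPM on total counts in 3 libraries. It had 4 to 24 counts in libraries labelled TAAR5-KO, from 0.210 through 0.387 to 0.729 CPM. In those labelled TAAR5-WT it had 0 to 12 counts, with a median of 0.245 CPM and a highest value of 0.432 CPM. Here 5 of 6 knockout libraries lay above the wild-type median, the side opposite to H2-D1. Without the filter its log2 fold change was 0.77 (SE 0.42, edgeR adjusted p = 0.585). Between 2.0% and 2.6% of the 100-base windows of these 3 heavy chains occurred unchanged in other class I genes such as H2-Q4, H2-Q1 and H2-T9. How the counting treated reads shared between genes is not given in the sources used here, so their counts are uncertain to that extent. Each of the 3 also overlaps an exon of a gene on the other strand (Gm53999, 5430410E06Rik and A930015D03Rik).

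**Figure D2:**
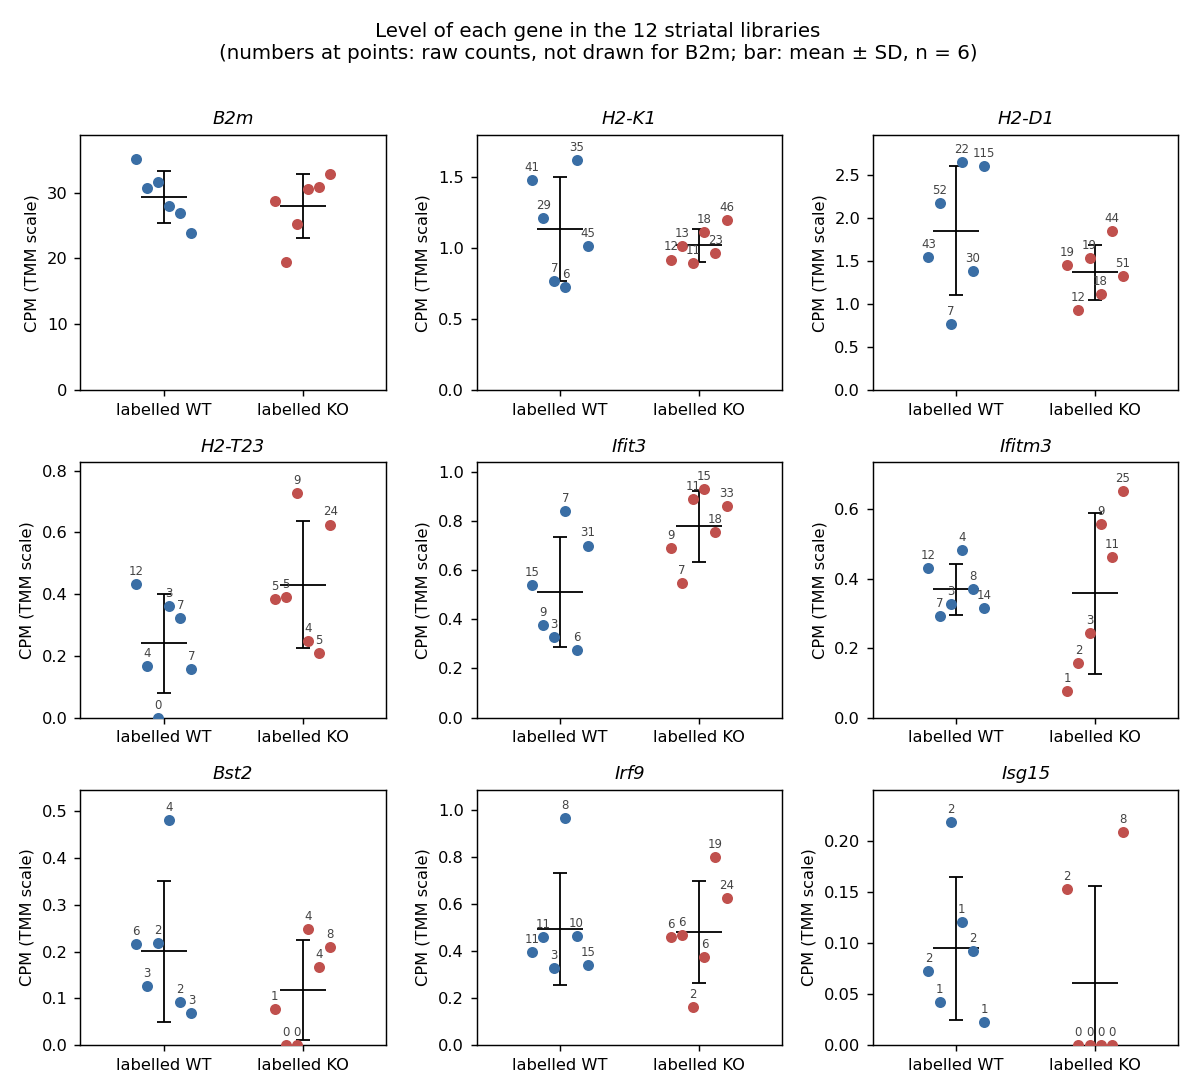
Level of each gene in CPM on the TMM scale (y axis, from 0) in the 6 libraries labelled WT (blue) and the 6 labelled KO (red). Points are libraries, the numbers at them are raw counts, and the bars are the mean ± SD. In each of the 9 panels the groups overlap.

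Among the interferon-stimulated genes of the 9, Ifit3 showed the most even shift. Ifit3 (ENSMUSG00000074896.4, chromosome 19, 34560931 to 34566131, plus strand) ran from 0.546 through 0.808 to 0.929 CPM in libraries labelled TAAR5-KO, on 7 to 33 counts. In those labelled TAAR5-WT it ran from 0.277 through 0.458 to 0.843 CPM, on 3 to 31 counts. All 6 knockout libraries were above the wild-type median and 3 were above every wild-type library, while NK10 and NK12 of the wild type lay within the knockout range. The log2 fold change was 0.61 (SE 0.27, 95% interval 0.09 to 1.14), the only one of the 6 tested genes with an unadjusted p under 0.05 (0.0200), and it did not pass the threshold (edgeR adjusted p = 0.305). The unadjusted p was above 0.05 without NK6 (0.0559), NK8 (0.0529) or NK11 (0.0635). Of its 100-base windows, 16.7% were shared with the paralogue Ifit3b, the largest share among the 9 genes, so part of its counts cannot be told apart from that copy. Ifit3b had a similar shift, at 0.589 against 0.388 CPM (log2 fold change 0.58, SE 0.33, edgeR adjusted p = 0.478).

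Ifitm3 (ENSMUSG00000025492.7, chromosome 7, 140589499 to 140590683, minus strand) varied more among the libraries labelled TAAR5-KO (SD 0.232 CPM, n = 6) than among those labelled TAAR5-WT (SD 0.0735 CPM, n = 6), a contrast that was not tested. It ran from 0.0766 through 0.352 to 0.652 CPM in the former, where NK1, NK2 and NK3 had 1, 2 and 3 counts and NK6 had 25. In libraries labelled TAAR5-WT it ran from 0.292 through 0.349 to 0.482 CPM, so that 3 knockout libraries lay below and 2 above all of the wild type. The mean CPM was 0.358 against 0.370, whereas the fitted log2 fold change, which weighs libraries by depth, was 0.18 (SE 0.37, 95% interval −0.53 to 0.90, edgeR adjusted p = 0.897). The signs of these differ, and no direction can be read.

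Bst2 and Isg15 were close to the floor of detection, and no difference was detectable at this depth. Bst2 (ENSMUSG00000046718.9, chromosome 8, 71986899 to 71990100, minus strand) had 0 to 8 counts in the knockout libraries (median 0.122 CPM, highest 0.248 CPM). In the wild-type libraries it had 2 to 6 counts (lowest 0.0678, median 0.171, highest 0.482 CPM). Isg15 (ENSMUSG00000035692.8, chromosome 4, 156283912 to 156285253, minus strand) had 0 counts in 4 libraries labelled TAAR5-KO, 2 in NK1 and 8 in NK6. It had 1 or 2 counts in each library labelled TAAR5-WT, all within the floor of 3. A fold is therefore not given for Isg15. Without the filter, the edgeR adjusted p was 0.895 for Bst2 (log2 fold change −0.22, SE 0.57) and 0.993 for Isg15.

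Irf9 (ENSMUSG00000002325.16, chromosome 14, 55841028 to 55847487, plus strand), the DNA-binding part of the complex that answers type I interferon, stayed below 1 CPM in all 12 libraries. It ran from 0.162 through 0.464 to 0.797 CPM in libraries labelled TAAR5-KO and from 0.328 through 0.428 to 0.963 CPM in those labelled TAAR5-WT. The ranges overlapped almost whole, and NK10 of the wild type, with 8 counts, was the highest of all 12 libraries. Mean levels were 0.481 against 0.491 CPM, while the fitted log2 fold change was 0.24 (SE 0.32, 95% interval −0.39 to 0.86, edgeR adjusted p = 0.832). Here too the sign of the fit and that of the means differ. Exons of Irf9 overlap those of Rnf31 on the same strand, and 3.8% of its windows were shared, so reads of the pair can be confused.

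The comparison of genotypes asked whether the knockout moves class I and interferon genes in the striatum. Of the 9 genes, 6 passed the filter on low values, and 0 of these 6 were called at an adjusted p under 0.1 by the likelihood ratio test of edgeR, with 1 of 6 at an unadjusted p under 0.05. Over all features, that test called 229 of 13902, or 1.65%, and 1654 of the 13902 had an unadjusted p under 0.05. With so few genes, counts of 0 and 1 are about what these background shares give and are no result about them. The quasi-likelihood test of edgeR called 0 of 6, against 0.453% of all features. Again 1 of 6 had an unadjusted p under 0.05, beside 1667 of the 13902 features. DESeq2 gave an adjusted p for B2m alone, which was not called. Without the filter all 9 were tested, and 0 of 9 were called against 0.213% of features. An unadjusted p under 0.05 was then found for 2 of 9 (Ifit3 and H2-D1), beside 3424 of 43668 features. Fitted changes were positive for Ifit3, Ifitm3 and Irf9 and negative for B2m, H2-K1 and H2-D1. The median log2 fold change of the 6 was 0.06, beside −0.01 for all features tested. The intervals leave room for changes of size in all but B2m: the upper bound for Ifit3 was 2.20-fold and the lower bound for H2-D1 was 0.528-fold.

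**Figure D3:**
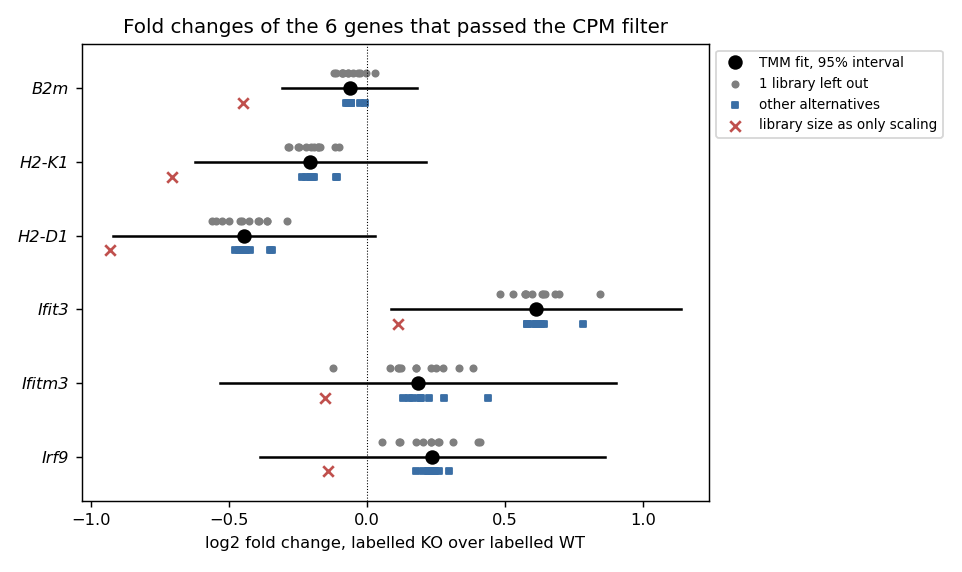
Log2 fold change of labelled KO over labelled WT (x axis) of the 6 genes past the filter. Black points with bars are the fit with its 95% interval, grey points leave out 1 library each, blue squares are other alternatives and red crosses scale by library size alone. The bars of 5 genes cross 0, and that of Ifit3 runs from 0.09 to 1.14.

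The genes around these 9 in the pathway were taken from lists by symbol, with 170 genes outside the 9 and 98 of them tested. Of these 98, 1 was called, H2-T24, beside 229 of the 13902 features (1.65%). That is about what the background share gives and is no result about the pathway. An unadjusted p under 0.05 was found for 6 of the 98, beside 1654 of the 13902 features. H2-T24 (ENSMUSG00000053835.18, chromosome 17, 36316587 to 36331452, minus strand) encodes a class I-like heavy chain of the T region, next to H2-T23. It ran from 0.929 through 1.37 to 1.54 CPM in libraries labelled TAAR5-KO and from 0.120 through 0.891 to 1.09 CPM in those labelled TAAR5-WT. All 6 knockout libraries were above the wild-type median and 5 of them above every wild-type library, and NK10 of the wild type had a single count. H2-T24 had a fitted log2 fold change of 0.71 (SE 0.22, edgeR adjusted p = 0.0757). The call was not made by the quasi-likelihood test of edgeR (adjusted p = 0.232), DESeq2 gave it no adjusted p, and it was lost without NK1, NK2, NK6, NK7, NK10, NK11 or NK12, each left out in turn (log2 fold change from 0.62 to 0.76, adjusted p from 0.117 to 0.249). It was also lost with the GC trend removed (adjusted p = 0.105), with the ribosomal RNA share as covariate (0.101), with ribosomal RNA features left out (0.135) and without the filter (0.346). With library size as only scaling the log2 fold change was 0.21, above the median of all features on that scale. An exon of H2-T24 overlaps A930015D03Rik on the other strand, and 2.3% of its windows were shared with other genes.

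Including H2-K1, H2-D1 and H2-T23, the list of class I heavy chains and class I-like chains had 17 genes, of which 8 were tested. Of these, 1 was called higher and 0 lower, 6 of 8 fitted changes were negative, and the median was −0.19. Genes of class I assembly and peptide supply, such as the peptide transporter and the immunoproteasome, had 16 of 20 tested and 0 called by the likelihood ratio test. There were 0 at an unadjusted p under 0.05, 13 of the 16 changes were negative, and the median was −0.07. Of the transporter and immunoproteasome genes, Tap2 and Psmb10 were tested. Tap1, Psmb8 and Psmb9, with 63, 25 and 24 counts over all libraries, were not. The smallest p of this list belonged to Psme2, a subunit of the proteasome activator, with 0.619 ± 0.176 against 0.924 ± 0.283 CPM (SD, n = 6 each, log2 fold change −0.55, SE 0.29, edgeR adjusted p = 0.427). Tapbp, which encodes the loading chaperone tapasin, had 1.45 ± 0.219 against 1.78 ± 0.507 CPM (log2 fold change −0.31, SE 0.20, edgeR adjusted p = 0.559).

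Interferon receptors and signalling had 21 of 27 genes tested and 0 called, with 2 at an unadjusted p under 0.05 and a median of 0.01. These 2 were Ptpn2, a phosphatase that dampens interferon signalling, at 3.05 ± 0.496 against 2.20 ± 0.395 CPM (SD, n = 6 each, log2 fold change 0.43, SE 0.16, edgeR adjusted p = 0.182), and the kinase gene Jak2. Jak2 had 11.1 ± 1.11 against 9.64 ± 0.920 CPM (log2 fold change 0.22, SE 0.10, edgeR adjusted p = 0.318). Scaling by library size alone moved the median of all tested features to −0.49 and these fits to −0.09 and −0.27, both above that median.

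Sensors of foreign nucleic acid had 23 of 29 genes tested and 0 called, with 2 at an unadjusted p under 0.05 and a median of −0.05. Ikbke, a kinase upstream of interferon induction, had 0 to 13 counts per library and a log2 fold change of 1.01 (SE 0.48, edgeR adjusted p = 0.341). Unc93b1, which escorts toll-like receptors to endosomes, had 1.24 ± 0.311 against 1.54 ± 0.235 CPM (SD, n = 6 each, edgeR adjusted p = 0.401). The list of interferon-stimulated effectors, which includes Ifit3, Ifitm3, Bst2 and Isg15, had 37 of 75 tested and 0 called, with 2 at an unadjusted p under 0.05 (Ifit3 and Lgals9). Its median was 0.04, with 19 positive and 18 negative changes. Lgals9, which encodes galectin-9, lay just outside the threshold, at 0.291 ± 0.130 against 0.595 ± 0.251 CPM (SD, n = 6 each, log2 fold change −1.04, SE 0.35, edgeR adjusted p = 0.104). Shisa5 had 2.07 ± 0.266 against 2.57 ± 0.706 CPM (edgeR adjusted p = 0.441). Across the lists outside the 9 genes, the quasi-likelihood test and DESeq2 called 0 of 98. They gave 5 and 4 of the 98 an unadjusted p under 0.05, beside 1667 and 1352 of the 13902 features. DESeq2 gave an adjusted p to 23 of the 98 genes, and H2-T24 and Lgals9 were not among them.

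The interferon genes themselves were not measurable. The 12 listed had 16 counts over all 12 libraries, 5 had none in any library, and 0 passed the filter. Class II genes, which mark professional presenting cells, had 3 of 9 tested and 0 called, with 0 at an unadjusted p under 0.05. H2-Ab1 stood at 0.392 ± 0.294 against 0.291 ± 0.106 CPM (SD, n = 6 each, edgeR adjusted p = 0.771). H2-DMa, which aids the loading of class II, stood at 0.654 ± 0.152 against 0.812 ± 0.282 CPM (edgeR adjusted p = 0.659).

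**Figure D4:**
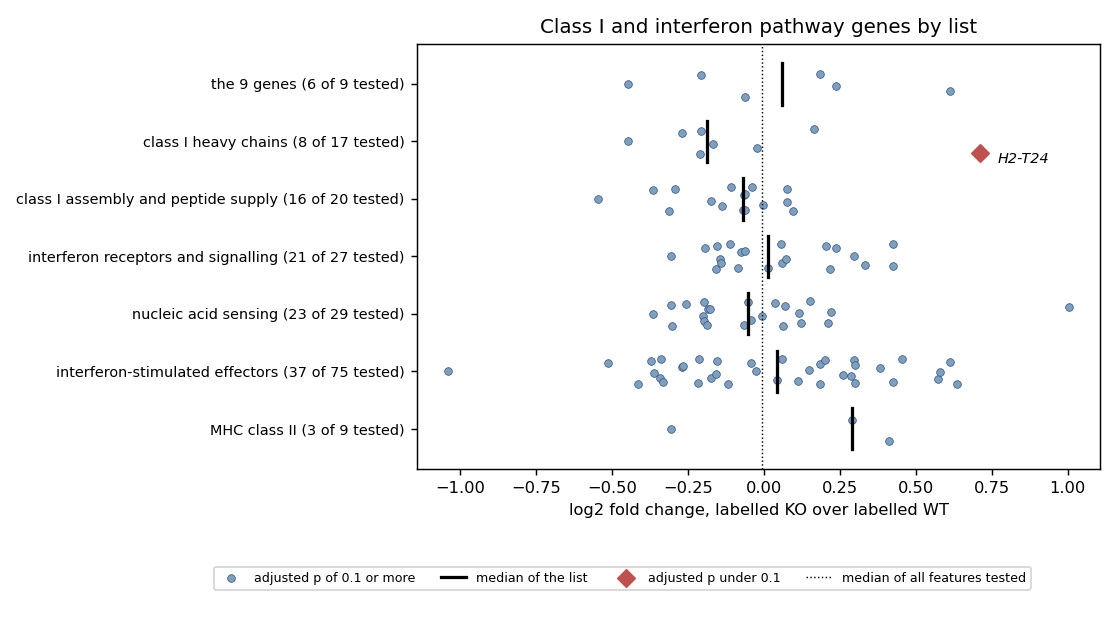
Log2 fold change of labelled KO over labelled WT (x axis) of each tested gene, by list (rows). Black bars are list medians, the dotted line is the median of all features tested and the red diamond is H2-T24, the one gene called. Medians of the lists lie between −0.19 and 0.29, the highest being that of the 3 class II genes.

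In bulk tissue, fewer cells of a type and less RNA per cell cannot be told apart, so the summed levels of marker lists are given beside the class I genes. The microglia list (14 of 15 genes in the table, all tested) summed to 44.0 to 63.3 CPM in libraries labelled TAAR5-KO and to 61.7 to 74.9 CPM in those labelled TAAR5-WT. Of its genes, 3 were called lower, 8 had an unadjusted p under 0.05, and 11 of 14 changes were negative. Beside this and the lists below, 1.65% of all 13902 features were called, and 1654 had an unadjusted p under 0.05. The endothelium list, with 0 of 13 tested genes called and 1 at an unadjusted p under 0.05, summed to 12.3 to 20.7 against 14.7 to 18.1 CPM. The astrocyte list had 1 of 11 genes called lower, 7 at an unadjusted p under 0.05, all 11 changes negative and sums of 1148 to 1348 against 1249 to 1465 CPM. The spiny neuron list had 0 of 10 called, 5 at an unadjusted p under 0.05 and all 10 changes positive. The erythrocyte list had 1 of 5 genes called higher, 3 at an unadjusted p under 0.05, a median log2 fold change of 0.51 and sums of 6.39 to 17.1 against 5.14 to 13.7 CPM. Lymphocyte markers, which stand for T, B and natural killer cells, had 1 of 15 tested and summed to 4.77 to 6.01 against 3.56 to 6.56 CPM. Neutrophil and monocyte markers stayed below 1 CPM in sum in every library. Their part in the levels of the 9 genes was not tested.

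The lists of tissues that line the ventricle varied widely within each label. The choroid plexus list summed to 2.91 to 495 CPM (median 6.63) in libraries labelled TAAR5-KO. In those labelled TAAR5-WT it summed to 4.11 to 301 CPM (median 187), so its content was uneven between labels. All 9 of its genes were tested and had negative changes, with 0 called and 0 at an unadjusted p under 0.05. The ependyma list summed to 1.84 to 10.2 (median 5.4) against 3.89 to 6.34 CPM (median 5.6). The part of this unevenness in the levels of the 9 genes described here was not tested. NK1, NK2 and NK3, where Ifitm3 had its lowest levels, were also low for both, with 2.91 to 4.30 CPM of choroid plexus and 1.84 to 3.75 CPM of ependyma markers, and had the highest ribosomal RNA shares of their label (86.6% to 88.1%). NK12 of the wild type was as low in choroid plexus (4.11 CPM) and near them in ependyma (3.89 CPM) with 0.316 CPM of Ifitm3. NK6, which had the highest Ifitm3 level of all, had 8.97 CPM of choroid plexus markers. Over the 12 libraries, log2 CPM of Ifitm3 and the ependyma sum had the closest relation of 135 between the 9 genes and library measures (Pearson's r = 0.841, permutation p = 0.00075, adjusted p = 0.101; Spearman's rho = 0.846, permutation p = 0.00104). Without the 2 libraries farthest from the median, r was 0.667. Within the libraries labelled TAAR5-KO r was 0.914 (exact permutation p = 0.0236), and within those labelled TAAR5-WT it was 0.0569, so the relation did not hold within both labels. None of the 135 relations passed an adjusted p under 0.1.

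Across libraries, the relations among the 9 genes were mostly weak. Low counts and the number of libraries limit r, so weak relations do not show that the genes vary apart. Of 36 pairs, 24 had a positive r, with a median of 0.17, and 0 passed an adjusted p under 0.1. For the 15 pairs of the 6 tested genes, r ran from −0.37 to 0.52 with a median of 0.19. The median was 0.37 within the knockout label and 0.15 within the wild-type label. The pair of highest r was B2m and Bst2 (r = 0.707, permutation p = 0.0102, adjusted p = 0.263; rho = 0.652, permutation p = 0.0253), where r was 0.525 without the 2 farthest libraries. It was 0.868 within TAAR5-KO and 0.406 within TAAR5-WT. H2-K1 and H2-D1, whose heavy chains share B2m as partner, had their own highest libraries in NK11 and NK10. Biological coefficients of variation came from the fit, which draws the value of each gene towards those of genes at a similar level. They were 14.3% for B2m, 13.8% for H2-K1 and 15.2% for Ifit3, close to the median of 12.5% over all features. For H2-D1, Irf9 and Ifitm3 they were 22.3%, 19.9% and 24.1%. Closeness to the median is in part a product of the fit.

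**Figure D5:**
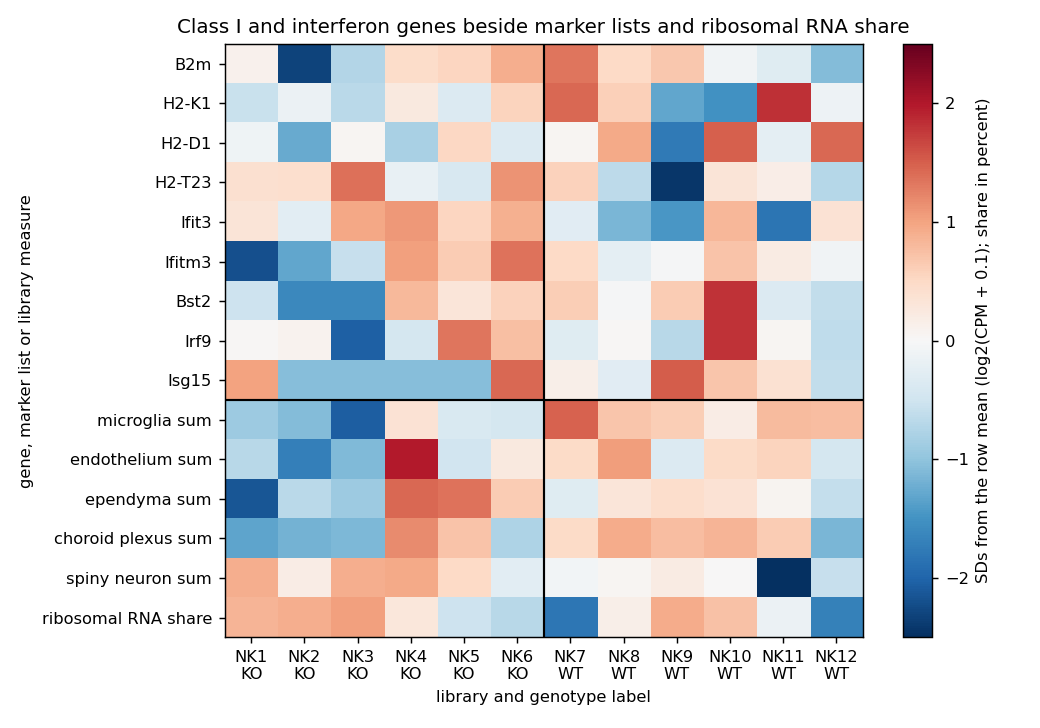
Each of the 9 genes (upper rows), the sums of 5 marker lists and the share of ribosomal RNA (lower rows) in the 12 libraries (columns, with the genotype label), coloured by the distance from the row mean in SDs. The upper rows are not alike among each other, and NK1 to NK3 are low for Ifitm3, ependyma and choroid plexus.

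The mean of the scaled log2 CPM of the 9 genes was lowest in NK2 and highest in NK6, both labelled TAAR5-KO. The tested features whose pattern over the 12 libraries was most like this mean were Trf (Pearson's r = 0.881), Zfp512 (0.873), Mtus1 (0.865), Pcdhb8 (0.846) and Ccdc166 (0.842). They were the highest of all tested features outside the 9, so these r are a description. Their fitted changes between labels were small and not called, from −0.14 for Mtus1 to 0.28 for Ccdc166 on the log2 scale (edgeR adjusted p of 0.693 and 0.778).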

How the data were processed

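Striatal RNA of 6 TAAR5-KO and 6 TAAR5-WT mice was depleted of ribosomal RNA by the authors, made into directional libraries (although the labels call the molecule polyA RNA) and sequenced as single-end reads. Per the labels, reads were trimmed with cutadapt 4.1, aligned with STAR 2.7.11b to GRCm39 and counted with featureCounts 2.0.6. The authors deposited raw counts per gene, without normalization or pooling, and the merged exon length of each gene, a value of another unit that was used for levels per kilobase. Whether strand was used, and how reads shared between genes were counted, is not given in the sources used here. The table holds 12 more columns with counts of libraries that are not used here.

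Columns name a genotype and a library, NK1 to NK6 for TAAR5-KO and NK7 to NK12 for TAAR5-WT, and no animal. Each column was a replicate of its genotype. Features with a CPM of at least 0.5 on total counts in at least 3 libraries were kept (13902). They were compared in edgeR 4.0.16 (R 4.3.3) with TMM factors, estimateDisp, glmFit and glmLRT without covariates, at a Benjamini-Hochberg adjusted p under 0.1 over all features kept, which follows the test and threshold of the study's methods. These state the same CPM minimum without naming the library sizes behind it. On TMM library sizes the filter kept 13053 features, the number that the study reports as tested. The 13902 features kept here thus differ in number from those of the study. With the filter on TMM library sizes 234 features were called, 135 higher and 99 lower in TAAR5-KO. The study reports fewer genes at this threshold, with more of them lower than higher in TAAR5-KO. The shares of called features given here are therefore not those of the study, and the cause of the difference was not tested. With the filter on TMM library sizes, 5 of the genes described here were tested, and Ifitm3 was removed. The quasi-likelihood test, DESeq2 1.42.0 and the other alternatives of the closing section were run beside the fit on the 13902 features. An adjusted p that DESeq2 gave as missing stayed missing. Intervals of 95% come from the standard error of the fit. The test was also run on simulated data, and the outcome of that run is not given here. Correlations used log2 CPM with a prior count of 2 and 100000 permutations over the 12 libraries, or all permutations within a genotype. Relations with library measures under other scalings were added after seeing the data. Windows of 100 bases and overlaps were taken from GENCODE M39, a later release than the one counted on (M35).

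The 9 genes and all lists were chosen with earlier results of these data known. Of each pathway list, the genes past the threshold were named, or else the 2 of smallest p. The 5 features of highest r to the mean of the 9 genes were named for likeness. Members of the microglia list are not reported one by one.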

Additional observations from a re-analysis of the deposited data

Results flagged for a closer look

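In the group labelled TAAR5-WT, library NK10 stood apart for Bst2, with 0.482 CPM on 4 counts, while the other 5 libraries ran from 0.0678 to 0.219 CPM. The same library stood apart for Irf9, with 0.963 CPM on 8 counts, while the others ran from 0.328 to 0.462 CPM. Both were found by setting the gap to the nearest library against the range of the group, which was done for 20 groups (the 9 genes and Taar5 in each genotype), and chance alone gives about 1 in 20. NK10 was the shallowest library, at 8.30 reads per CPM. The part of its depth in these values was not tested.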

How the results depend on the processing

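No gene of the 9 was called under the 24 alternatives wherever it had an adjusted p. H2-T23, Bst2 and Isg15 were tested only without a filter and with ribosomal RNA features left out, and DESeq2 gave an adjusted p to B2m alone. Of 136 refitted fold changes of the 6 tested genes, 132 kept their direction and 4 reversed: B2m to 0.028 without NK2 (leave-one-out range −0.12 to 0.028), Ifitm3 to −0.12 without NK6 (range −0.12 to 0.38) and to −0.15 under scaling by library size alone, and Irf9 to −0.14 with the latter. That scaling also reversed Ptpn2 (−0.091), Jak2 (−0.27) and H2-Ab1 (−0.18), and it moved the median of all tested features to −0.49 on the log2 scale. The Ifitm3 test could not be run under filterByExpr and the CPM filter on TMM library sizes, which removed the gene. Features called numbered 63 under the quasi-likelihood test (68.3% of them higher, against 58.1% in the fit reported), 7 with library size only (0% higher), 93 without a filter, 108 at an adjusted p under 0.05 (69.4% higher), 107 with the GC trend removed (68.2% higher), 98 with the ribosomal RNA share as covariate, and from 85 without NK11 to 414 without NK4. Pathway genes called numbered 0 under the quasi-likelihood test, DESeq2, an adjusted p under 0.05, no filter, library size only, the GC trend removed and ribosomal RNA features left out, and from 0 to 3 when 1 library was left out: 3 without NK4 (H2-T24, Lgals9 and Ptpn2), 2 without NK5 or NK9 (H2-T24 and Lgals9), 0 without NK1, NK2, NK6, NK7 or NK11. The 1 call without NK10 or NK12 was Lgals9, and that with the ribosomal RNA share as covariate was Ptpn2. Pairs of the 9 genes past the threshold numbered 28 with library size only, and relations with library measures 11 with library size only and 1 with a prior count of 0.5. The causes were not tested. No paired analysis was possible because the columns carry library numbers that are not tied to the animal numbers of the labels. Depth limits 8 of the 9 genes: H2-T23, Bst2 and Isg15 lay under the filter, and each gene other than B2m had 7 counts or fewer in at least 1 library.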
